A study of Rattus norvegicus with 12 samples.

Results

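The genes described here are 40 genes of glycolysis, glycogen metabolism and insulin signaling, taken by name from a list and followed in the mammary glands of 12 rats. A gene was read from the probe set that carries its symbol and no other, and where several did, from the one with the highest mean intensity over the 12 arrays. Of the 40 genes, 39 have such a probe set, among 14506 genes on the array that do, and all 39 were among the 23371 probe sets tested of 29214 on the array. Irs2, an adaptor of the insulin receptor, has none and is not analysed here.

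All rats were female Lewis rats that had been ovariectomized at 10 weeks of age, with treatment starting 14 days later. Each of 4 groups held 3 rats. They received, under the skin, the solvent alone, which was a mix of DMSO and castor oil (vehicle), estradiol (E2) at 4 µg per kg per day, 3-methylcholanthrene (3-MC), a combustion-type hydrocarbon and ligand of the aryl hydrocarbon receptor (AHR), at 15 mg per kg per day, or both (E2 + 3-MC). The rats were given 3 treatments, the labels name a treatment time of 48 h, and the glands were taken 24 h after the last dose. The comparisons ask what E2 did to gene expression in a gland without ovarian hormone, what 3-MC did alone, and whether 3-MC changed the response to E2. RNA of mammary gland tissue was hybridized to 1 Affymetrix rat gene array per rat, so epithelium, fat, vessels, connective tissue and any adjoining muscle were read together. The methods name several mammary glands, from both sides of the body, as frozen for RNA. They do not say which of these glands, or which part, each array holds. All 15 luminal epithelial and all 13 white adipocyte markers had a tested probe set. Array medians ran from 85.7 to 109.5 intensity units.

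Glucose enters cells through transporters, is trapped by hexokinases and is broken down by the glycolytic enzymes to pyruvate, which lactate dehydrogenase turns into lactate or the pyruvate dehydrogenase complex passes on to the mitochondria. Pyruvate dehydrogenase kinases (Pdk) switch that complex off. Glycogen is built by glycogen synthase and the branching enzyme and broken down by glycogen phosphorylases. Insulin, acting through its receptor, the Irs adaptors, PI3 kinase and Akt, brings the transporter GLUT4 to the surface of fat and muscle cells and favours glycogen storage. In the mammary gland, adipocytes answer to insulin, and the epithelium draws on glucose to grow and later to make lactose.

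The promoters of 3 members with a change described below are shown first. Aldoa and Aldoc encode 2 aldolases that went in opposite directions with E2, and Pfkfb3 encodes an enzyme that makes the activator of phosphofructokinase. Each is the 250 bases before the gene's start, from RefSeq on the rat build GRCr8, written 5′ to 3′ on the gene's strand. The positions are chr1:190836778-190837027 on the minus strand for Aldoa, chr10:63715294-63715543 on the plus strand for Aldoc and chr17:71944683-71944932 on the plus strand for Pfkfb3. Capitals mark matches on either strand to CACGTG (the E-box core), GCGTG (the core of the xenobiotic response element bound by AHR) or TGACCT (1 arm of the palindromic estrogen response element).
Aldoa: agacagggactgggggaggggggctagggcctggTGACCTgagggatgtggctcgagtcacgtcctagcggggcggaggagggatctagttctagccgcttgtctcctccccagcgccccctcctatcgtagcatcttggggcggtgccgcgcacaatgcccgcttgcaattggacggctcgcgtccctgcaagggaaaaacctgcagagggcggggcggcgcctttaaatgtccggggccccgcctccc
Aldoc: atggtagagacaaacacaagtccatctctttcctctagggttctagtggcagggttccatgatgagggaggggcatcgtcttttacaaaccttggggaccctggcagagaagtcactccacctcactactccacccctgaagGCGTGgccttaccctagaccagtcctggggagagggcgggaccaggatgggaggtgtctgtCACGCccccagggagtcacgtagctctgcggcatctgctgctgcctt
Pfkfb3: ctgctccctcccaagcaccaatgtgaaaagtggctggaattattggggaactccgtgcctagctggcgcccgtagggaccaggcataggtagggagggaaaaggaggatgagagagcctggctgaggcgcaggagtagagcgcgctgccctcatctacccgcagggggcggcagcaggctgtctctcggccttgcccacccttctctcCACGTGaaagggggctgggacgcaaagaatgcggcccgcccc
Aldoa holds a TGACCT that begins 216 bases before the start, Aldoc holds 2 xenobiotic response element cores, and Pfkfb3 holds an E-box core 42 bases before the start. RefSeq promoters of 300 bases, 250 before and 50 after the start, were matched by symbol for 36 of the 40 genes. Slc2a4, Pgk1, Irs2 and Pde3b had no match. The E-box core was present in 4 of the 36 promoters (11.1%) and in 6.42% of all 33469 promoters of that length in the table. GCGTG was present in 18 of the 36 and in 29.7% of all promoters, with a median GC content of 63.2% in the members' promoters and 51.7% in all. TGACCT was present in 5 of the 36 (13.9%) and in 16.2% of all. Of the members described below as changed with E2, 5 have a promoter here, and those of Pygl and Ptpn1 are not printed. Among these 5, GCGTG was in Aldoc, Pygl and Ptpn1, TGACCT in Aldoa and Ptpn1, and the E-box core in Pfkfb3. The full palindrome, GGTCA, any 3 bases and TGACC, was in none of the 36 and in 0.0269% of all. No 2 of the motifs printed above overlap, and a match is a run of letters and not a measured binding site.

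With E2 alone, 6 of the 39 members (15.4%) differed from vehicle by at least 1.5-fold at an adjusted p under 0.05, while 1.58% of all tested probe sets did. The lower direction held 4 members (10.3%), Slc2a4, Aldoa, Pfkfb3 and Pygl, against 0.287% of all probe sets. The higher direction held Aldoc and Ptpn1. The members were chosen with earlier results of these data known. The authors' pathway analysis of these arrays had listed Ptpn1 as higher and Slc2a4, Pygl and Hk2 as lower with E2. These shares of members are therefore not independent of the data. The median log2 change of the 39 members was -0.26, that of all tested probe sets 0.02, and 25 of the 39 members lay below 0. At an unadjusted p under 0.05 there were 11 members lower and 3 higher, against 4.89% of all tested probe sets lower and 6.82% higher. The 3 E2 rats lay wholly below the 3 vehicle rats for 13 members and wholly above them for 3, and 18.1% of all tested probe sets separated these groups in either direction, 8.05% with E2 lower. All folds and log2 changes are on the log2(intensity + 16) scale, and adjusted p-values are Benjamini-Hochberg values over all tested probe sets from limma.

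**Figure D1:**
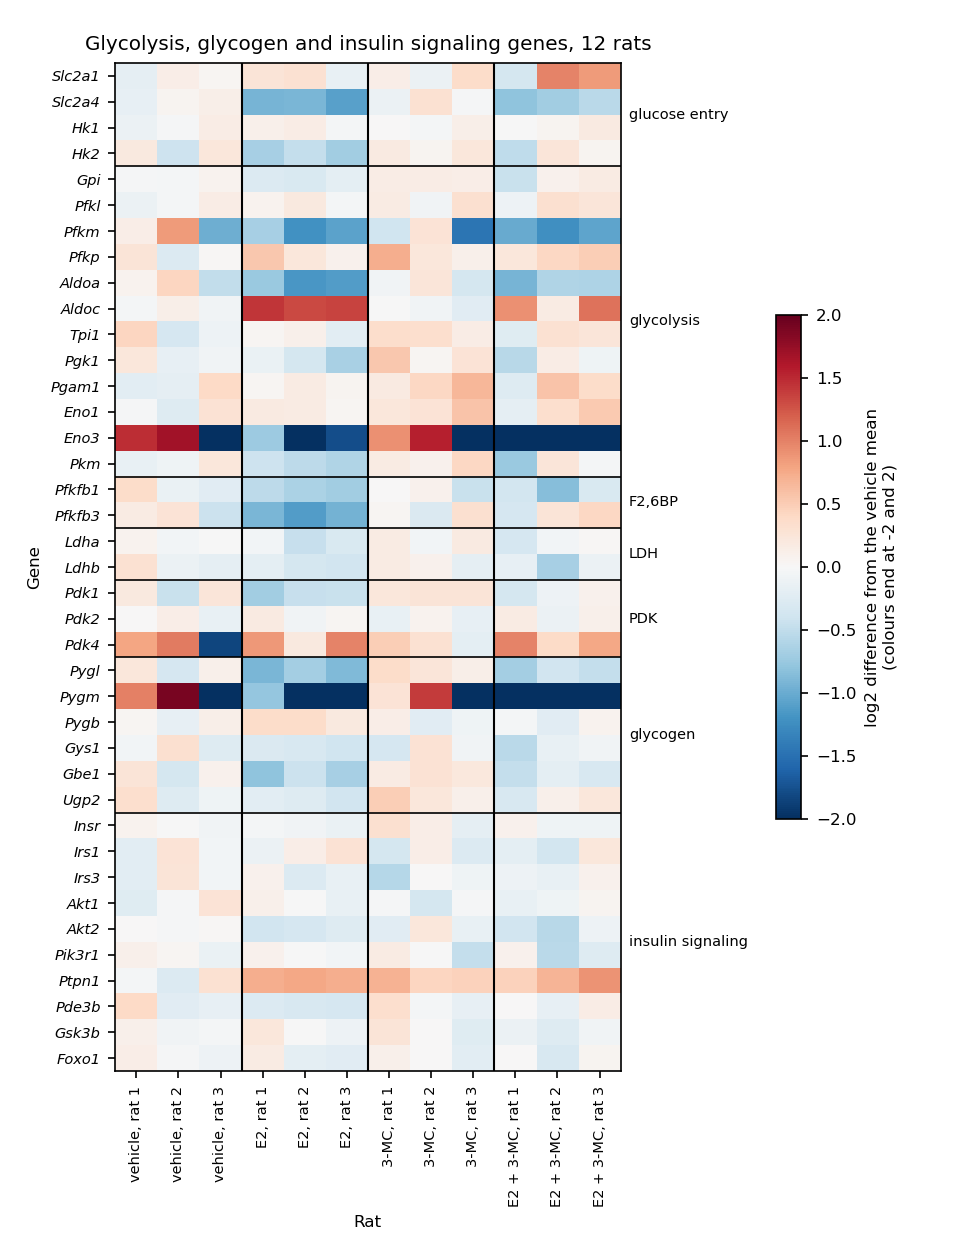
Each cell is the log2 difference of 1 gene (rows, 39 members grouped by role) in 1 rat (columns, 3 rats in each of 4 groups) from the vehicle mean, with colours ending at -2 and 2. Slc2a4, Aldoa, Pfkfb3 and Pygl are blue and Aldoc and Ptpn1 red in all 3 E2 rats, and Eno3, Pygm, Pfkm and Pdk4 differ between rats of the vehicle group.

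Of the genes for glucose entry, Slc2a4, which encodes GLUT4, the insulin-responsive glucose transporter of fat and muscle, had intensities of 169, 199 and 209 in the 3 vehicle rats and 93.4, 93.7 and 81.9 in the 3 E2 rats. Every E2 rat was below every vehicle rat. The fall was 1.97-fold (log2 change -0.98, SE 0.141, limma adjusted p = 0.00441), and it stayed past the threshold without any 1 rat, with adjusted p at most 0.0264. In the 3-MC rats Slc2a4 was at 175, 240 and 188, overlapping the vehicle rats, and in the E2 + 3-MC rats it was at 103, 112 and 128, above every E2 rat and below every vehicle rat. Slc2a1, which encodes GLUT1, the transporter of most dividing cells, was at 242, 306 and 286 in vehicle and 333, 347 and 248 in E2 rats, and these ranges overlapped (log2 change 0.14, 95% interval -0.47 to 0.74). In the E2 + 3-MC group Slc2a1 was at 213, 567 and 510, so rat 1 lay below and rats 2 and 3 above all vehicle rats. Hk1, the hexokinase of most tissues, changed by 0.07 on the log2 scale with E2 (95% interval -0.19 to 0.32). Hk2, the hexokinase of insulin-responsive tissues, was at 115, 70.2 and 117 in vehicle and 56.1, 66.4 and 54.7 in E2 rats, with no overlap, and its log2 change of -0.61 (SE 0.201) had a limma adjusted p of 0.188 and did not pass.

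Among 12 glycolytic enzymes, 1 fell, 1 rose and 10 did not pass with E2. Aldoa, the aldolase of muscle and most other cells, had intensities of 3310, 4265 and 2249 in vehicle rats and 1891, 1398 and 1459 in E2 rats, a 2.01-fold fall (log2 change -1.01, SE 0.221, limma adjusted p = 0.0364). Aldoc, the aldolase best known from brain, had intensities of 269, 304 and 264 in vehicle rats and 776, 718 and 737 in E2 rats, a 2.58-fold rise (log2 change 1.37, SE 0.191, limma adjusted p = 0.00384). The vehicle and E2 rats did not overlap for either aldolase. The call for Aldoc held without any 1 rat, with adjusted p at most 0.0296. That for Aldoa was lost without vehicle rat 1 or 2, without any of the 3 E2 rats, and without E2 + 3-MC rat 2 or 3, with adjusted p up to 0.186. It was also lost with a pseudocount of 1, with each array centred on its median and with the 2 groups alone. The methods' t-test with Benjamini-Hochberg adjustment kept none of the 6 calls.

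The phosphofructokinase subunits differed in how tightly they were measured. Pfkl, the liver form, changed by 0.07 with E2 (95% interval -0.25 to 0.39 on the log2 scale), and Pfkp, the platelet form, by 0.28 (-0.12 to 0.68). Pfkm, the muscle form, was at 314, 525 and 136 in vehicle rats and 173, 114 and 127 in E2 rats, and its change of -0.98 had an interval from -1.90 to -0.07 and an adjusted p of 0.372 in limma. Downstream, Tpi1, Pgam1 and Eno1 had log2 changes between -0.03 and 0.13, Gpi, which makes the substrate of phosphofructokinase, had -0.26, and Pgk1 had -0.38, none past the test. Pkm, the pyruvate kinase of tissues other than liver and red blood cells, had a mean intensity of 1298 ± 186 (SD, n = 3) in vehicle and 896 ± 59.9 (SD, n = 3) in E2 rats, a log2 change of -0.52 with a limma adjusted p of 0.323. Pgam1, Eno1, Pkm, Ldha and Insr have further probe sets that carry their symbol alone. For Pkm these gave log2 changes with E2 of -0.51 and -0.51, and for Eno1 0.20 and 0.15. For Pgam1, Ldha and Insr they gave 0.06, -0.25 and -0.06. In this comparison the probe sets of each gene lay close together. They lay further apart elsewhere, as for Insr with 3-MC against vehicle, at 0.09 and -0.16.

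Pfkfb3 and Pfkfb1 encode enzymes that make and break down the sugar phosphate which activates phosphofructokinase. Pfkfb3, the inducible form, was at 525, 570 and 343 in vehicle rats and 241, 209 and 236 in E2 rats, a 1.99-fold fall (log2 change -0.99, SE 0.224, limma adjusted p = 0.0433). The groups did not overlap. The call was lost without vehicle rat 1 or 2, any E2 rat, 3-MC rat 1, or E2 + 3-MC rat 2 or 3, with adjusted p up to 0.202. It was also lost with a pseudocount of 1, with no filter and with a replicate block, although nothing says that same-numbered rats are pairs. Pfkfb1, the form of liver and muscle, was at 404, 279 and 262 in vehicle and 212, 193 and 185 in E2 rats, also without overlap, and its log2 change of -0.62 had a limma adjusted p of 0.171.

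Neither lactate dehydrogenase subunit passed with E2, Ldha with a log2 change of -0.27 (95% interval -0.58 to 0.03) and Ldhb with -0.31 (-0.68 to 0.06). None of 3 pyruvate dehydrogenase kinases passed. Pdk1 had a log2 change of -0.53 (limma adjusted p = 0.202) and Pdk2 of 0.05 (95% interval -0.23 to 0.34). Pdk4, the form induced by fasting in muscle and other tissues, was at 1263, 1501 and 190 in vehicle and 1334, 824 and 1452 in E2 rats, and vehicle rat 3 alone lay far below the others. Its log2 change with E2 was 0.69 with an interval from -0.50 to 1.87, and -0.23 without vehicle rat 3. The 3-MC rats were at 1016, 895 and 626 and the E2 + 3-MC rats at 1450, 942 and 1238, within the range of the vehicle rats.

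The enzymes of glycogen turned on Pygl. Pygl, the liver form of glycogen phosphorylase, which releases glucose units from glycogen, was at 593, 393 and 543 in vehicle rats and 259, 307 and 266 in E2 rats, a 1.77-fold fall with no overlap (log2 change -0.82, SE 0.157, limma adjusted p = 0.0192). The call was lost without vehicle rat 1 or 3 or any E2 rat, with adjusted p up to 0.102. Its paralogs did not pass. Pygb, the brain form, was at 193, 166 and 205 in vehicle and 247, 247 and 216 in E2 rats, a log2 change of 0.31 with a limma adjusted p of 0.384. Pygm, the muscle form, was at 916, 1727 and 46.2 in vehicle and 255, 35.4 and 97.8 in E2 rats, and its log2 change had a 95% interval from -4.49 to 0.49. Gbe1, the branching enzyme, was 283 ± 62.1 in vehicle and 174 ± 25.0 in E2 rats (SD, n = 3), and its log2 change of -0.64 missed the threshold with a limma adjusted p of 0.0745, the smallest among the 33 members not called. Gys1, the glycogen synthase of muscle and most tissues, had -0.34 and Ugp2, which makes the UDP-glucose that glycogen synthase uses, had -0.28, neither past the test.

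In the insulin pathway 1 of 10 measured members passed with E2. Ptpn1 encodes PTP1B, the phosphatase that takes phosphate off the insulin receptor, and it was at 145, 120 and 189 in vehicle rats and 257, 265 and 257 in E2 rats. The rise was 1.67-fold without overlap (log2 change 0.74, SE 0.160, limma adjusted p = 0.0352). The call was lost when vehicle rat 1 or 2, E2 + 3-MC rat 2 or any E2 rat was left out, with adjusted p up to 0.156, and also with the 2 groups alone. The other 9 members had log2 changes from -0.33 to 0.10. For 7 of them, Insr (the receptor), Irs1 and Irs3 (adaptors), Akt1, Pik3r1 (the regulatory subunit of PI3 kinase), Gsk3b (the kinase that inhibits glycogen synthase) and Foxo1 (a transcription factor that Akt keeps out of the nucleus), the 95% interval lay within 1.5-fold on both sides. Akt2, the Akt form most tied to GLUT4, was at 1048, 1017 and 1050 in vehicle and 792, 817 and 865 in E2 rats, with no overlap, a log2 change of -0.33 and a limma adjusted p of 0.395. Pde3b, which lowers cyclic AMP in adipocytes in answer to insulin, changed by -0.31 (95% interval -0.69 to 0.06). Over all members, the interval lay within 1.5-fold for 15 of the 33 that were not called.

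**Figure D2:**
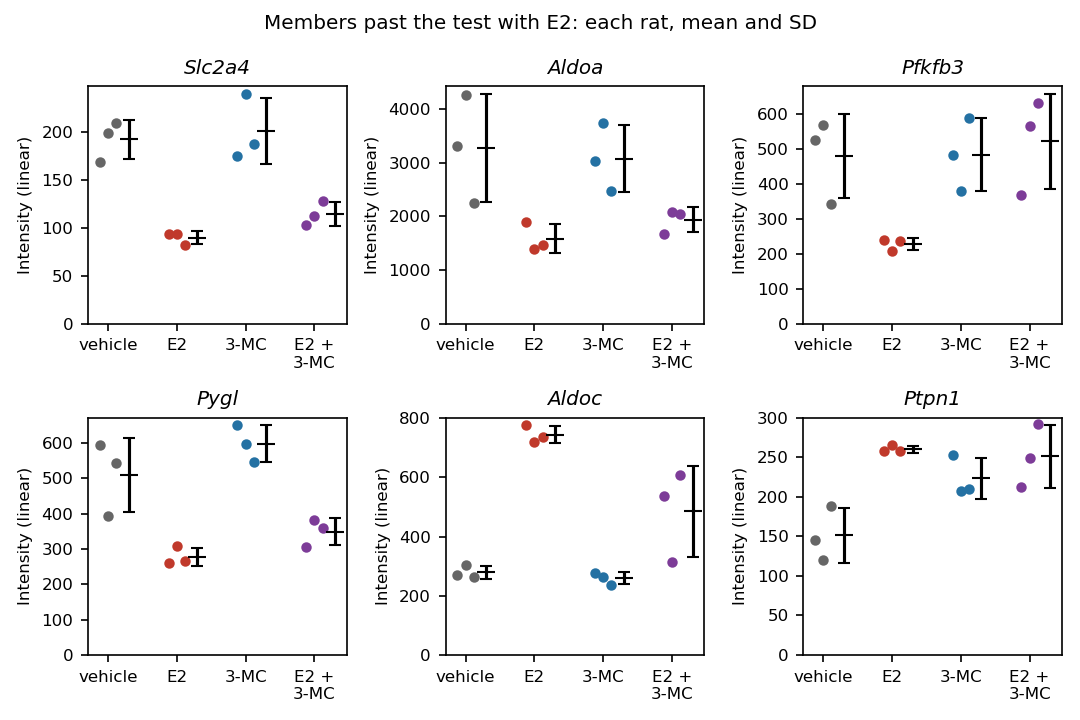
Points are the linear intensities of the 3 rats of each group for the 6 members past the test with E2, and the black mark beside them is the mean with its SD. E2 rats lie below all vehicle rats for Slc2a4, Aldoa, Pfkfb3 and Pygl and above them for Aldoc and Ptpn1, and Pfkfb3 in the E2 + 3-MC rats lies at 370, 566 and 632.

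Other genes of these pathways were counted from 4 lists. With E2, none of 25 further genes of glucose uptake and glycolysis passed in limma (at an unadjusted p under 0.05, 7 were lower and 1 higher), none of 15 further glycogen genes (4 lower) and none of 37 further insulin signaling genes (1 lower and 1 higher). In the list of 12 genes of the pyruvate dehydrogenase complex and pyruvate handling, 2 fell and none rose. Pc, the pyruvate carboxylase that feeds the citric acid cycle and fat synthesis, fell by 1.14 on the log2 scale (SE 0.184, limma adjusted p = 0.00802), and Mpc1, part of the carrier that takes pyruvate into mitochondria, fell by 0.78 (SE 0.170, limma adjusted p = 0.0360). The median log2 changes of the 4 lists were -0.16, -0.24, 0.01 and -0.29 in that order, against 0.02 for all tested probe sets.

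Markers of several cell types differed with E2 as well. In these bulk samples fewer cells of a type and less RNA per cell cannot be told apart. Of 13 white adipocyte markers, 3 fell (Pparg, Lpl and Retn), 12 had a log2 change below 0, and the summed intensity of the list was 27479 to 32698 in vehicle and 21778 to 25110 in E2 rats. Of 15 luminal epithelial markers, 8 rose, and their sum was 7030 to 8110 in vehicle and 11108 to 14096 in E2 rats. Of 8 endothelial markers none passed in limma, but each of the 8 had an unadjusted p under 0.05 and lay lower, and their sum was 3786 to 4812 in vehicle and 2803 to 3212 in E2 rats. Of 7 basal epithelial markers, Krt14 and Krt17 rose, 3 lay below 0 and the median log2 change was 0.03. Of 10 myeloid markers, Cd14 rose, while 8 lay below 0 and the median log2 change was -0.42. None of 9 fibroblast, 7 lymphocyte and 2 brown adipocyte markers passed in limma. At an unadjusted p under 0.05, 4 fibroblast markers and 1 brown adipocyte marker were lower, 1 fibroblast marker was higher and no lymphocyte marker differed. No marker of any list was at 0 on any array. The part of these shifts in the changes of Slc2a4, Pygl, Aldoc and the other members was not tested.

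Skeletal muscle markers ranged more widely between the glands. The level of a rat is the median log2 difference of 16 muscle markers, such as actin Acta1 and creatine kinase Ckm, from their vehicle means. It was 1.51, 2.03 and -3.66 in the vehicle rats, -0.43, -2.80 and -1.27 in the E2 rats, 0.88, 1.49 and -3.43 in the 3-MC rats, and -2.32, -2.02 and -3.38 in the E2 + 3-MC rats. Every group but E2 + 3-MC held rats both above and below -1, and all E2 and E2 + 3-MC rats lay below 0. The summed intensity of the markers was 703 to 44911 in vehicle, 1356 to 8689 in E2, 790 to 32514 in 3-MC and 950 to 2653 in E2 + 3-MC rats. None of the 16 markers passed with E2 in limma (1 was lower at an unadjusted p under 0.05), and their median log2 change was -1.45.

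The 4 members with the widest spread among vehicle rats were also those with a slope on this level. Eno3, the enolase of muscle, was at 2014, 2320 and 65.1 in vehicle, 421, 100 and 198 in E2, 1349, 2120 and 73.9 in 3-MC and 110, 141 and 103 in E2 + 3-MC rats, a 28.8-fold range within the vehicle group. Pygm was at 549, 1217 and 39.6 in 3-MC and 61.2, 57.9 and 51.0 in E2 + 3-MC rats. Pfkm was at 213, 348 and 93.02 in 3-MC and 133, 112 and 128 in E2 + 3-MC rats. For these 3 genes the low values fell on the rats with a low muscle level. Pygm had a 28.0-fold range in that group, Pdk4 a 7.35-fold and Pfkm a 3.55-fold range, while no other member exceeded the 1.89-fold of Aldoa and Akt2 had 1.03-fold. Within groups, the log2 intensity of Eno3 rose by 0.87 and that of Pygm by 0.82 per log2 unit of the muscle level, and that of Pdk4 by 0.33 and Pfkm by 0.28, with limma adjusted p of 0.0310 for Pdk4 and 0.00168 for Pfkm. These were the 4 of 39 members for which that slope passed, and 0.492% of all tested probe sets did. All 4 belong to a list of 10 members known to be high in skeletal muscle, of which Aldoa (0.12, limma adjusted p = 0.139), Slc2a4 (-0.01) and Hk2 (-0.05) did not pass. Without vehicle rat 3 only Eno3 and Pygm passed, of the 4. This slope was examined after the spread had been seen.

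**Figure D3:**
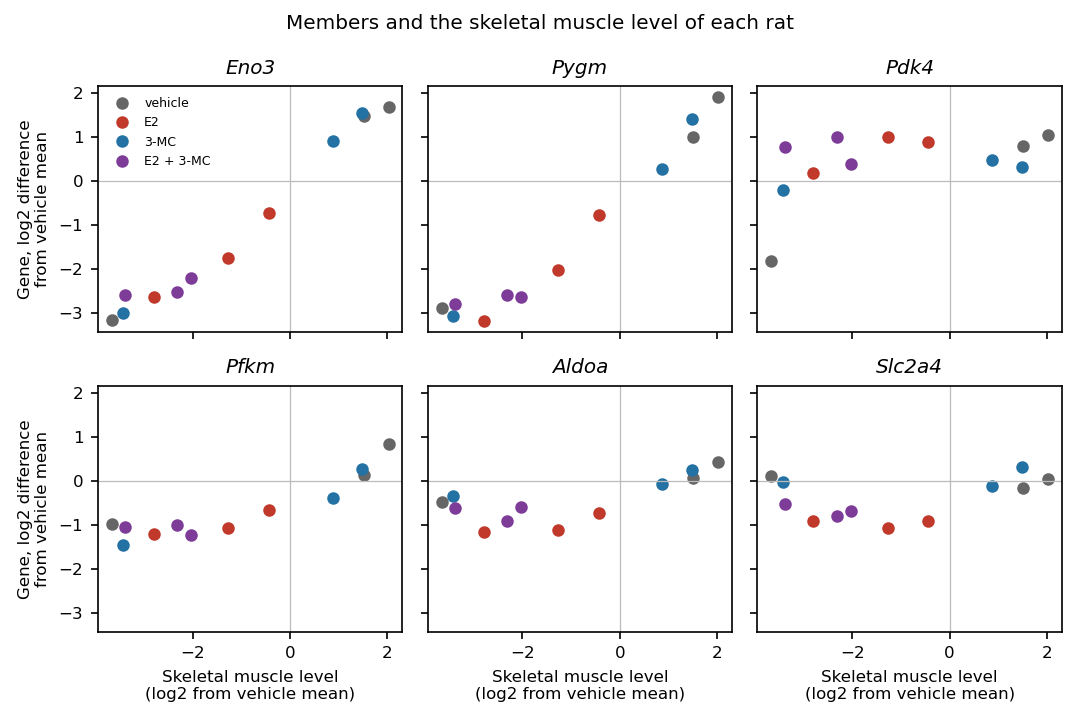
The x axis is the skeletal muscle level of each rat (median log2 difference of 16 markers from the vehicle mean) and the y axis the log2 difference of the named gene from its vehicle mean, with 1 point per rat coloured by group. Eno3 rises along the axis, and Pygm rises too but not steadily among the rats with a level of -2.02 or lower. Pfkm rises with a slope of 0.28, and for Slc2a4 the E2 rats lie below all vehicle and 3-MC rats.

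With the muscle level as a term of the model, 4 of the 6 members past the test with E2 still passed, with 1.57% of all tested probe sets. Slc2a4 had a log2 change of -0.99 (limma adjusted p = 0.00602), Aldoa of -0.83 (0.0176), Pygl of -0.84 (0.0220) and Aldoc of 1.39 (0.00419). Pfkfb3, at -0.96, and Ptpn1, at 0.67, moved to limma adjusted p-values of 0.0633 and 0.0535. The muscle term moved the log2 change of Eno3 from -1.71 to -0.45, took Pygm from a 3.99-fold to a 1.74-fold lower level (log2 change -0.80, 95% interval -1.36 to -0.24), and moved Pdk4 from 0.69 to 1.17 with a limma adjusted p of 0.114. Neither Eno3 nor Pygm passed with the term. Over the 10 members high in muscle, the median change with E2 was -0.80 without and -0.55 with the term, and over the other 29 it was -0.08 and -0.04. The 8 arrays with a muscle level below 0, picked after the data had been seen, hold 1 vehicle rat, rat 3, whose spread has to be assumed equal to that of the other groups, so a fit to them says nothing on stability. In it 4 members (Slc2a4, Pygl, Aldoc and Pdk4) and 1.48% of all tested probe sets passed with E2, and Aldoa (-0.52), Pfkfb3 (-0.56) and Ptpn1 (0.43) did not. Eno3 and Pygm, at 1.45 and 0.91, lay higher with E2 there without passing, and the Pdk4 value rests on the 190 of vehicle rat 3.

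**Figure D4:**
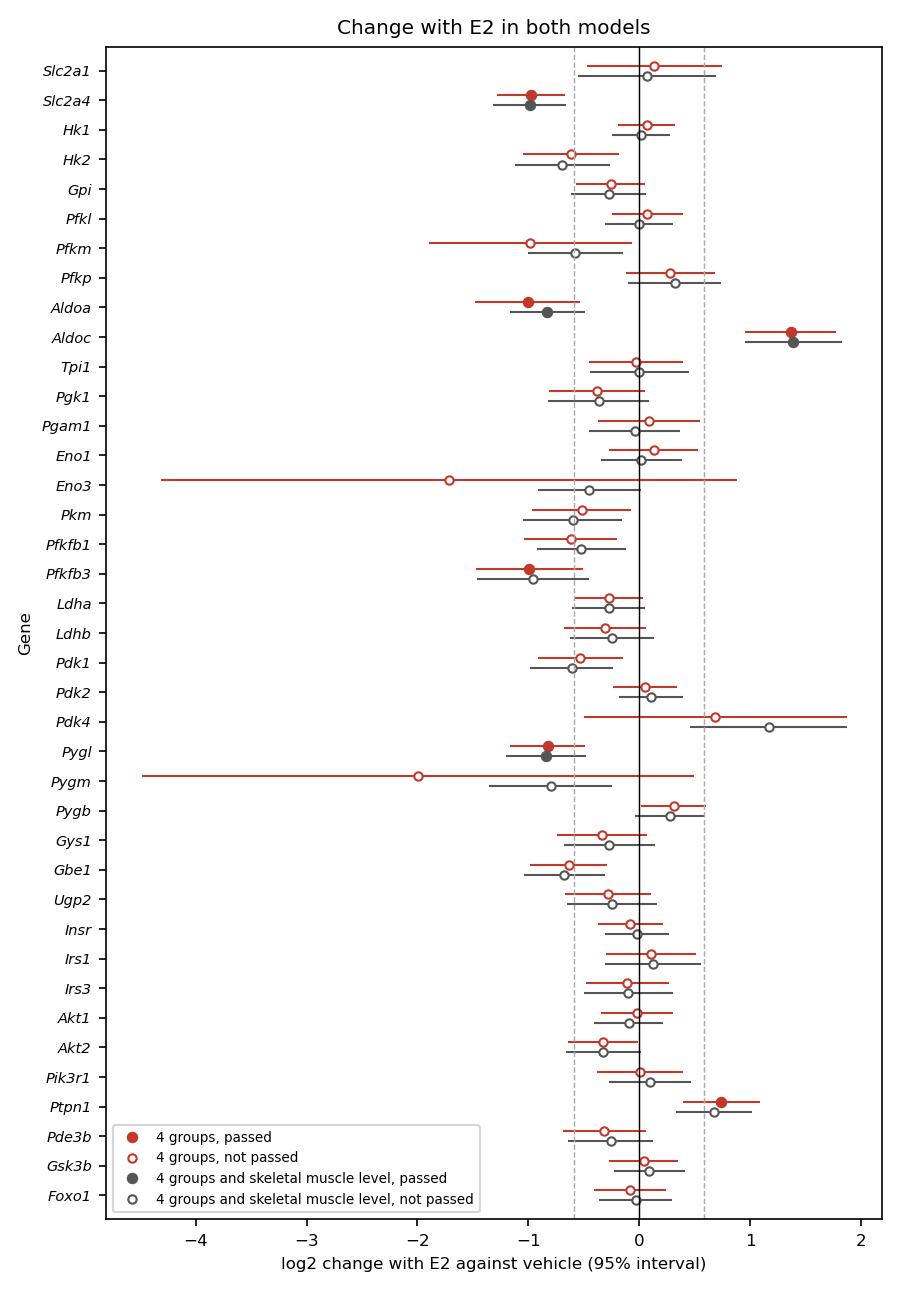
Points are log2 changes with E2 against vehicle for the 39 members with 95% intervals, in the model of 4 groups (red) and in that with the skeletal muscle level added (grey). Filled points passed the test, and dashed lines mark 1.5-fold. The intervals of Eno3, Pygm and Pfkm shrink with the muscle term, while Slc2a4 stays at -0.98 and -0.99.

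With 3-MC alone, none of the 39 members passed against vehicle in limma, and 0% of all tested probe sets did. Their median log2 change was 0.05, with 0.06 for all. At an unadjusted p under 0.05 there was 1 member, against 4.24% of all tested probe sets. This was Ptpn1, at 253, 207 and 210 in the 3-MC rats, above all 3 vehicle rats (log2 change 0.53, SE 0.160, limma adjusted p = 0.920). Of all tested probe sets, 7.03% separated these groups. The summed intensity of the 10 myeloid markers was 3521 to 9096 in vehicle and 5519 to 11788 in 3-MC rats, and its part in the Ptpn1 values was not tested. The 5 other members called with E2 stayed near the vehicle rats. Aldoa was at 3024, 3736 and 2473 in the 3-MC rats and Aldoc at 276, 264 and 236. Pfkfb3 was at 483, 380 and 591 and Pygl at 651, 596 and 546, and for all 4 genes the 3-MC rats overlapped the vehicle rats. Aldoc and Aldoa had log2 changes of -0.10 and -0.06 with 3-MC, Pfkfb3 0.02, Slc2a4 0.05 and Pygl 0.24. Leaving out Eno3, Pygm, Pfkm and Pdk4, the changes with 3-MC lay between -0.22 for Irs3 and 0.53 for Ptpn1.

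With both agents, none of the 39 members passed against vehicle, while 0.163% of all tested probe sets did, and at an unadjusted p under 0.05 there were 7 lower and 2 higher, against 2.73% of all lower and 6.99% higher. These groups did not overlap for 14.2% of all tested probe sets. The comparisons of E2 and of E2 + 3-MC with vehicle share the vehicle rats, so their values are only set side by side. Slc2a4 had a log2 change of -0.98 with E2 and -0.68 with both (limma adjusted p = 0.106). Aldoa had -1.01 and -0.72, Pygl -0.82 and -0.51, Ptpn1 0.74 and 0.68, and Aldoc 1.37 and 0.72. Pfkfb3 had -0.99 with E2 and 0.12 with both. In the rats given both, Aldoa was at 1663, 2086 and 2049 and Pygl at 307, 382 and 358, below every vehicle rat. Ptpn1 was at 212, 250 and 292, above every vehicle rat. Against 3-MC alone, none of the members passed for E2 + 3-MC and 0.111% of all tested probe sets did, with 5 members lower and 1 higher at an unadjusted p under 0.05, against 2.22% and 2.81% of all. The largest of these in size were Aldoc at 0.82, Pygl at -0.75, Slc2a4 at -0.73 and Aldoa at -0.65.

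Adding 3-MC to E2 changed no member past the test, and 0% of all tested probe sets passed. At an unadjusted p under 0.05, 3 members were higher and 2 lower than with E2 alone, against 5.99% and 2.77% of all, and the groups did not overlap for 17.9% of all tested probe sets. Pfkfb3 was at 370, 566 and 632 in E2 + 3-MC rats against 241, 209 and 236 in E2 rats, so every rat given both lay above every E2 rat, with a log2 difference of 1.11 (SE 0.224) and a limma adjusted p of 0.284. It passed, with an adjusted p of 0.0133, where limma was fitted to these 2 groups alone, as did 1.52% of all tested probe sets. Hk2 (0.54) and Pdk1 (0.41) were the others higher, and Aldoc (-0.65) and Pygb (-0.38) those lower. Hk2 was at 64.3, 119 and 103 in E2 + 3-MC rats, so rat 1 lay within the range of the E2 rats. Aldoc was at 539, 313 and 607 in E2 + 3-MC rats, all below the E2 rats and all above the vehicle rats, with rat 2 close to the highest vehicle rat at 304. Pygb was at 181, 157 and 197, below all 3 E2 rats and overlapping the vehicle rats. Markers of other cells differed between these groups too. The summed intensity of the myeloid markers was 4505 to 5445 in E2 and 6252 to 12359 in E2 + 3-MC rats, that of the lymphocyte markers 683 to 800 and 1023 to 2177, and that of the luminal markers 11108 to 14096 and 8436 to 10902, with no overlap for any of the 3 lists. At an unadjusted p under 0.05, 7 of 10 myeloid and 6 of 7 lymphocyte markers were higher and 7 of 15 luminal markers lower, though none passed in limma. The part of these shifts in the values of Pfkfb3, Aldoc and the other members was not tested.

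The test of whether the effect of 3-MC differed with E2 present, the interaction, passed for none of the 39 members, and 0% of all tested probe sets passed it. At an unadjusted p under 0.05 it named 2 of 39 members, against 4.42% of all tested probe sets. For Pfkfb3 it was 1.08 (SE 0.317, 95% interval 0.40 to 1.77, limma adjusted p = 0.942) and for Ptpn1 -0.59 (SE 0.227, 95% interval -1.08 to -0.10, limma adjusted p = 0.982). For Slc2a4, Aldoa and Pygl the interaction was 0.25, 0.35 and 0.07, with intervals that included 0, so a difference in their response to E2 between rats with and without 3-MC was not shown. Nor was it shown for Aldoc, which was not among the 2 members at an unadjusted p under 0.05. For 4 of the 9 insulin pathway members other than Ptpn1 (Insr, Akt1, Akt2 and Foxo1) its interval lay within 1.5-fold. With 3 rats per group the median SE of a member's log2 change was 0.180 between groups and 0.254 for the interaction.

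**Figure D5:**
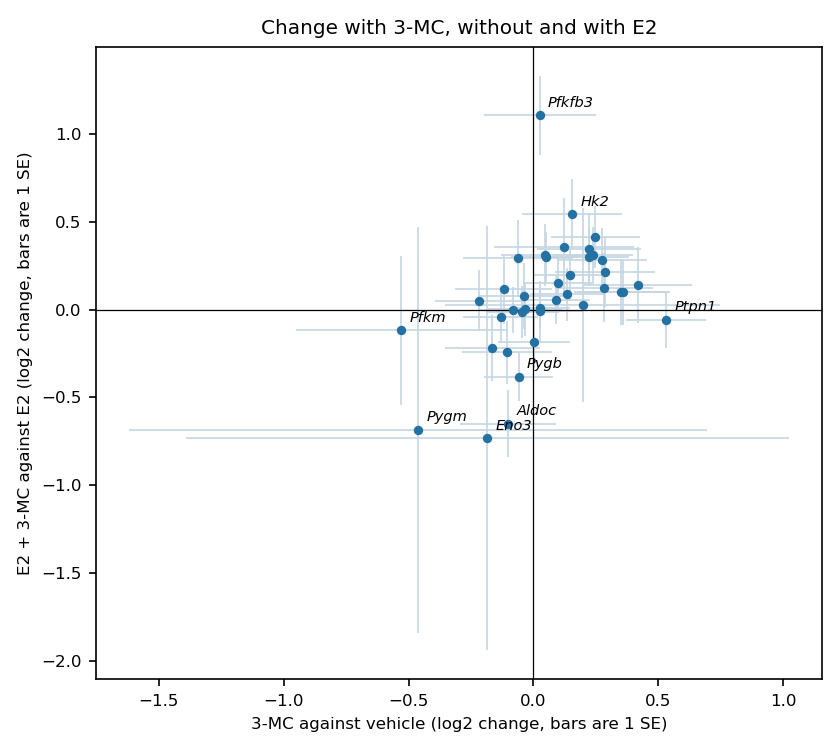
Each point is 1 of the 39 members, with its log2 change with 3-MC against vehicle on the x axis and with 3-MC added to E2 on the y axis, and bars of 1 SE. These comparisons share no rats. Pfkfb3 lies at 0.02 and 1.11, Ptpn1 at 0.53 and -0.06, and the wide bars belong to Eno3 and Pygm.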

How the data were processed

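The deposited values are linear intensity values per probe set, which the authors summarized from the arrays with PLIER in Affymetrix Expression Console. The methods further name quantile normalization and removal of the lowest percentiles, but the array medians differ here and all probe sets are present. The genome build of the array annotation is not given in the sources used here. Of 29214 probe sets, 15310 carry 1 gene symbol in the platform annotation, 323 several and 13581 none. From the intensity values, log2(intensity + 16) was taken and the 23371 probe sets with a mean above the 20th percentile went into 1 limma model of 4 groups (limma 3.58.1 under R 4.3.3), with two-sided tests. A change of at least 1.5-fold whose Benjamini-Hochberg value was under 0.05 passed. The muscle slope passed on the adjusted p alone. Precision is limited by the 3 arrays in each group.

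The members, gene lists, tests and motifs were chosen with earlier results of these data known. Values per rat are printed for members that passed in any comparison, their paralogs and the 4 members with the widest spread among vehicle rats. Hk2 and Akt2 were added to these after seeing their values. Doses, age and surgery come from the methods.

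Deviations from the group means of same-numbered vehicle and 3-MC rats correlated across probe sets at 0.341, 0.442 and 0.564. No other 2 groups had all 3 correlations above 0.1. Nothing in the labels or methods says that rats of 1 number are pairs, and no pairing entered the model of 4 groups. The muscle level of rats 1, 2 and 3 was 1.51, 2.03 and -3.66 in vehicle and 0.88, 1.49 and -3.43 in 3-MC. Its part in these correlations was not tested. The procedure was tested on simulated data. The alternatives were other filters, pseudocounts and scalings, the 2 groups alone, trend and robust settings, array weights, a replicate block, the muscle level as a covariate, the methods' t-test, other fold thresholds, all probe sets of a gene and each rat left out. The plots were made in matplotlib 3.10.9 (Python 3.11.15).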

Additional observations from a re-analysis of the deposited data

How the results depend on the processing

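The count of 6 members past the test with E2 was between 4 and 8 with other filters, pseudocounts and scalings, with the 2 groups alone, trend and robust settings, array weights, the muscle level as a covariate, no fold threshold and all probe sets of a gene. It was 2 at a 2-fold threshold and 0 with the methods' t-test after Benjamini-Hochberg adjustment, where 7 probe sets in all passed. Without adjustment the methods' t-test at their threshold called 703 of the 23371 tested probe sets, and 9 members (7 lower, 2 higher) were among these. With a replicate block 5 members passed with E2, without Pfkfb3, and the block changed no other count of members between groups. Leaving out each rat in turn gave 2 to 6 members, with 2 without vehicle rat 1 or any E2 rat and 3 without E2 + 3-MC rat 2. Against vehicle, E2 + 3-MC had 1 member with array weights (Slc2a4) and 0 to 1 without each rat, and against 3-MC it had 0 to 1. Against E2, it had 1 with the 2 groups alone (Pfkfb3). The number of members changing with the muscle level was 2 with a replicate block and 2 to 4 without each rat. Apart from the methods' t-test, the counts in this paragraph are given without the share of all probe sets under the same setting. They show only how the number of members moved. No member named with a change in direction reversed it while called. The cause of these shifts was not tested.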
